A study of Mus musculus with 4 samples.

Results

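Hypoxia target genes outside glycolysis were read in cultured mouse tissue from the AGM (the aorta-gonad-mesonephros region), the part of the embryo in which the first blood stem cells arise. The set held 10 genes, chosen by symbol as well-known targets of the hypoxia-inducible factors that encode no enzyme of sugar breakdown: Adm, Car9, Ankrd37, Ndrg1, P4ha1, P4ha2, Kdm3a, Mxi1, Bhlhe40 and Plod2. Earlier results of these data were known when the choice was made. All 10 were among the 49997 genes of the deposited tables, and all 10 were among the 19837 that passed the filter on low counts. The 4 libraries were 2 from untreated explants and 2 from explants given 5 µM CCCP, a protonophore that lets protons leak back across the inner membrane of mitochondria. All explants had the genotype C57BL/6J and were cultured for 48 hours on membrane filters in a medium with hydrocortisone. The design text names embryonic stage E10.5, and the growth protocol names E11.5 as well. The number of embryos behind a library is not given in the sources used here, so the spread between replicates may be technical.

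Hypoxia-inducible factors are pairs of an alpha subunit, such as Hif1a or Epas1, and the partner Arnt. When oxygen is plentiful, prolyl hydroxylases of the Egln family mark the alpha subunit and the Vhl ubiquitin ligase has it destroyed. When oxygen is scarce the alpha subunit persists and binds a short core sequence, ACGTG or GCGTG, in its target genes. Mitochondria consume oxygen in respiration, and they are a known influence on how much of it remains inside the cell. The AGM region and the vessels of the embryo develop at low oxygen, where the factors are known to act.

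The libraries held 37360968 to 48827826 counted reads, and the 10 genes took 0.0676% to 0.0740% of them in untreated and 0.0491% to 0.0552% in CCCP explants. The lowest count of any of the 10 was 56 (Car9, CCCP replicate 2), far above the floor of 3 counts. The labels name stem cells, and levels were read in CPM (counts scaled to the size of the library). Of the blood markers, Kit stood at 47.6 to 63.2 CPM and Csf1r at 35.9 to 53.1 CPM over the 4 libraries, while Ptprc (the leukocyte antigen CD45) had 6.85 and 6.82 CPM in untreated and 3.65 and 3.39 CPM in CCCP libraries. Pdgfra, a mesenchymal receptor, stood at 188 to 311 CPM, so the libraries also hold RNA of cells other than blood. Transcripts of 10 hepatic and endodermal marker genes had lower values in CCCP. None passed in edgeR (smallest adjusted p 0.133), while DESeq2 called 7 of the 10 as lower, against 2.99% of the genes it tested. The summed level of the 10 was 1668 and 963 CPM in untreated against 54.7 and 106 CPM in CCCP libraries. None of the 10 markers was at 0 throughout. The summed level of 9 endothelial markers was 525 and 689 against 560 and 546 CPM, with 6 negative log2 fold changes and a median of -0.09. That of 9 blood markers was 196 and 171 against 145 and 167 CPM, with 8 negative and a median of -0.31. That of 8 mesenchymal markers was 1126 and 868 against 964 and 871 CPM, with 6 negative and a median of -0.35. Of the mesenchymal markers 4 had both CCCP libraries below both untreated ones, namely Dcn (-0.60), Postn (-0.53), Lum (-0.46) and Tbx18 (-0.43). In 1, Twist1 (0.42), both CCCP libraries lay above both untreated ones. Of all genes 24.8% lay below in this way and 24% above. No endothelial, blood or mesenchymal marker was at 0 throughout, and none passed in edgeR. DESeq2 called 1 of them, Ptprc, as lower (DESeq2 adjusted p 0.0459). In bulk tissue, fewer cells of a type and less RNA per cell cannot be told apart. The median was instead positive for erythroid (0.32), neural (0.04), skeletal muscle (0.22), mesonephric and gonadal (0.06) and mesothelial and epithelial (0.28) markers. Cell type markers thus did not move in one direction. All 10 hepatic and endodermal markers and most of the mesenchymal, blood and endothelial lists had lower values in CCCP, as the hypoxia targets did. The part of cell types in the results that follow was not tested.

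Promoter windows from RefSeq (build GRCm38.p6, 250 bases before to 50 after a start) were found for 7 of the 10 genes: Adm, Car9, Ankrd37, P4ha1, P4ha2, Kdm3a and Mxi1. The hypoxia core was searched as ACGTG and GCGTG on both strands. Matches of the 2 words, or of 1 word on both strands, can share bases. The first listed window of 6 of the 7 genes held at least 1 match, and Mxi1 held one only in its other windows. Of all 32851 windows 43.8% held a match, and of the 14253 windows with at least 55% G and C 63.8% did. A match is a description of the letters and not of a bound site. The stretches before the first exon of 4 genes are shown because their transcripts differed in very unequal measure between the groups: Car9 by the most of the 10, P4ha2 by the least, and P4ha1, the close relative of P4ha2, in between. Capitals mark the core on either strand, so CACGT and CACGC are the core read from the opposite strand. All 4 are on the plus strand.
Car9, chr4:43506776-43507025: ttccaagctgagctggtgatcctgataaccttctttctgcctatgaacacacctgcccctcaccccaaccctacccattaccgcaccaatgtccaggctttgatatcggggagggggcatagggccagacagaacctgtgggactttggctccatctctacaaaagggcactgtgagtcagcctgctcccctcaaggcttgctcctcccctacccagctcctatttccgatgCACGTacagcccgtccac
Adm, chr7:110627407-110627656: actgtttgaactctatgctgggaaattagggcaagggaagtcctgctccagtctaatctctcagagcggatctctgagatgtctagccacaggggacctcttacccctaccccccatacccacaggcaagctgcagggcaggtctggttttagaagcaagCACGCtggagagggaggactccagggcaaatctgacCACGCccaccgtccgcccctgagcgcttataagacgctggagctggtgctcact
P4ha1, chr10:59323046-59323196: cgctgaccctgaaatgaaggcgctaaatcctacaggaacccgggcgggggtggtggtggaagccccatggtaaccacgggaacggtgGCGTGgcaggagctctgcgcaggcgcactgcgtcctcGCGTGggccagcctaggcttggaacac
P4ha2, chr11:54100674-54100923: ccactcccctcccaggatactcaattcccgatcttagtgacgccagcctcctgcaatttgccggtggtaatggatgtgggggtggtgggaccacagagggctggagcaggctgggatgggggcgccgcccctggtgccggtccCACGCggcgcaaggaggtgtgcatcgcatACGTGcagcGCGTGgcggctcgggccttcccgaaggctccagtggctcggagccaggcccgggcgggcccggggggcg

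The core of Car9 begins 18 bases before the start. P4ha2 carries 3 matches in the stretch shown and a further one 11 bases into the transcript, and P4ha1 carries 2 in the stretch shown and a further one 16 bases before its RefSeq start. The number of matches did not order the genes by the size of their difference, since P4ha2, with 4 matches in its window, differed least and Car9, with 1, differed most.

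All 10 genes had a lower fitted level in CCCP than in untreated explants, although none passed the threshold of 0.05 on the adjusted p-value of edgeR's quasi-likelihood fit (Benjamini-Hochberg, over all 19837 genes, of which 0% passed; 2899 had an unadjusted p under 0.05). The log2 fold changes ran from -1.21 for Car9 to -0.03 for P4ha2, with a median of -0.45, against a median of -0.01 over all genes tested and 50.8% of all genes below 0. For 7 of the 10, each CCCP library lay below each untreated one, where 24.8% of all genes did so. At an unadjusted p under 0.05, 6 of the 10 were lower, against 9.16% of all genes. Because the set was chosen with earlier results of these data known, these shares describe it and are not a test. DESeq2, run on the same counts, called 2 of the 10, Kdm3a and Plod2, as lower at an adjusted p under 0.05, where it called 2.99% of the genes it tested as lower.

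**Figure D1:**
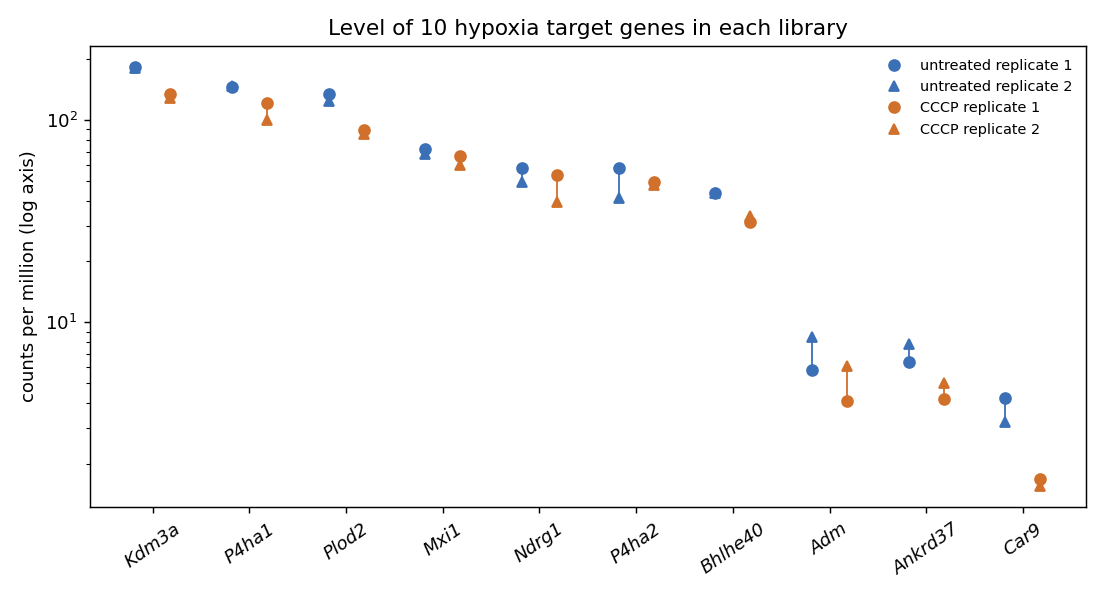
Level in CPM (log axis) of the 10 genes in each of the 4 libraries, ordered by mean untreated level. Circles are replicate 1 and triangles replicate 2, and the line joins the 2 libraries of a group. For 7 genes both CCCP libraries lie below both untreated libraries; Adm, Ndrg1 and P4ha2 overlap.

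Levels of different genes were compared per kilobase of exon. In untreated explants Kdm3a (35.1 CPM per kilobase) and P4ha1 (34.7) were the highest, and their library values overlapped. P4ha2 (21.1), Plod2 (19.3) and Ndrg1 (18.7) followed, also with overlapping values, and then Mxi1 (15.03) and Bhlhe40 (14.0), whose library values were separate. Plod2 shares 43.7% of its exon bases with a gene on the opposite strand. Reads there were not counted, so its level per kilobase is understated and its place in this order is uncertain. Adm (5.13), Ankrd37 (3.18) and Car9 (1.69) were the lowest and did not overlap each other. In CCCP explants Kdm3a stood at 25.3 and P4ha1 at 26.4 CPM per kilobase, while Car9 stood at 0.730.

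Adm, Car9 and Ankrd37 are the scarce members of the set. Gene coordinates are those of the deposited tables, on mm10. Car9 (chromosome 4, 43507026 to 43513729, plus strand) encodes a membrane carbonic anhydrase that faces the outside of the cell and turns carbon dioxide into bicarbonate and protons. It had 211 and 120 counts in the untreated and 81 and 56 counts in the CCCP libraries, which is 4.21 and 3.21 CPM against 1.67 and 1.54 CPM. Each CCCP library was lower than each untreated one, at 0.433 of the untreated level. The log2 fold change was -1.21 ± 0.320 (SE), with adjusted p = 0.230. in edgeR It lay between -1.36 and -0.99 with any 1 library left out. Exons of Car9 share 153 bases with Arhgef39 on the opposite strand, a gene with 474 to 526 counts. Reads in that shared stretch were counted for neither gene. Of its relatives, Car12, another hypoxia-linked membrane anhydrase, had a log2 fold change of -0.01 on 2.84 to 5.29 CPM with overlapping groups. Among the 8 other carbonic anhydrase genes tested none was separate between groups, and the smallest p-values belonged to Car3 (log2 fold change -0.35) and Car2 (0.30), with edgeR adjusted p-values of 0.590 and 0.718.

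Ankrd37 (chromosome 8, 45996908 to 46000414, minus strand), an ankyrin repeat protein, had 6.35 and 7.78 CPM in untreated and 4.16 and 5.02 CPM in CCCP libraries. The groups did not overlap. Its log2 fold change was -0.62 ± 0.252 (SE), with adjusted p = 0.339. in edgeR Ankrd37 shares 51 of its exon bases with Ufsp2 on the opposite strand.

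Adm (chromosome 7, 110627657 to 110629820, plus strand) encodes adrenomedullin, a secreted peptide that widens vessels and is needed for the vessels of the embryo. It had 5.83 and 8.48 CPM in untreated and 4.10 and 6.09 CPM in CCCP libraries. CCCP replicate 2 lay above untreated replicate 1, so the groups overlapped. The log2 fold change was -0.49 ± 0.315 (SE), with adjusted p = 0.4995 in edgeR. It was -0.17 without untreated replicate 2, -0.22 without CCCP replicate 1 and -0.79 without CCCP replicate 2. Replicate 2 was the higher library in both groups. Calcrl, the receptor that binds adrenomedullin together with a Ramp protein, had 23.8 and 31.6 CPM in untreated and 17.5 and 20.8 CPM in CCCP libraries, at a log2 fold change of -0.53 (adjusted p = 0.313., edgeR) Its partner Ramp2 had overlapping groups and a log2 fold change of 0.15. Ackr3, a scavenger receptor for the peptide, had 0.14, and the related hormone Adm2 had 0.58 on 1.46 to 4.30 CPM. Calcrl was the lone gene of the 6 in this receptor list with a negative log2 fold change.

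P4ha1, P4ha2 and Plod2 encode enzymes that hydroxylate collagen inside the endoplasmic reticulum. P4ha1 and P4ha2 are alternative catalytic subunits of prolyl 4-hydroxylase, which stabilises the collagen triple helix. Plod2 is a lysyl hydroxylase that sets the type of cross-link between collagen molecules. Plod2 (chromosome 9, 92539636 to 92608428, plus strand) had 135 and 124 CPM in untreated and 89.2 and 85.8 CPM in CCCP libraries. Both CCCP libraries were lower, at 0.675 of the untreated level, and the 2 libraries of each group were close. The log2 fold change was -0.57 ± 0.115 (SE), with adjusted p = 0.175 in edgeR, the smallest of the 10 genes, while the DESeq2 adjusted p-value was 0.0143. Plod2 has a long, GC-poor transcript, at 6709 exon bases and 42.2% G and C, and its log2 fold change was -0.42 with the trend on exon length removed from each library and -0.27 with the trend on GC content removed. Of its exon bases, 43.7% are shared with B430319G15Rik on the opposite strand, which had 5 to 27 counts.

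P4ha1 (chromosome 10, 59323197 to 59373304, plus strand) had 145 and 147 CPM in untreated and 122 and 101 CPM in CCCP libraries. The groups were separate, with a gap between the CCCP libraries that exceeded the gap between the untreated ones. Its log2 fold change was -0.40 ± 0.133 (SE), with adjusted p = 0.284 in edgeR, and it was -0.26 without CCCP replicate 2. P4ha2 (chromosome 11, 54100924 to 54131668, plus strand) had 57.7 and 41.4 CPM in untreated and 49.3 and 47.6 CPM in CCCP libraries. Both CCCP libraries lay between the 2 untreated ones. Its log2 fold change was -0.03 ± 0.177 (SE), with adjusted p = 0.944 in edgeR, and its sign turned to 0.24 without untreated replicate 1. Neither gene overlaps another in the annotation, and the same is true of Kdm3a and Ndrg1. Adm, Mxi1 and Bhlhe40 share 20.4%, 4.92% and 3.79% of their exon bases with genes on the opposite strand that had at most 93 counts. Whether the 2 subunits differed from each other in response was not tested.

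Most other genes of collagen hydroxylation and folding had values in the other direction. Of 12 such genes, 9 had a positive log2 fold change, 7 were separate and higher in CCCP (24% of all genes were) and 2 separate and lower, Lox and P3h2, a prolyl 3-hydroxylase (24.8% of all genes were). None passed in edgeR. The median log2 fold change was 0.30. DESeq2 called 1 gene of this list as lower, Lox, and 1 as higher, Serpinh1 (log2 fold change 0.49, DESeq2 adjusted p 0.0176). Of all genes it tested, it called 2.99% as lower and 0.329% as higher. P4hb, the shared beta subunit that holds either prolyl 4-hydroxylase alpha subunit in solution, had 615 and 636 CPM in untreated and 805 and 821 CPM in CCCP libraries. Its log2 fold change was 0.38 (adjusted p = 0.295., edgeR) Plod1 and Plod3, the other lysyl hydroxylases, stood at 0.18 and 0.26 on the log2 fold scale, and the third alpha subunit, P4ha3, stood at -0.38 on 5.24 to 10.45 CPM with overlapping groups. The smallest p-values of the list belonged to Lox, the secreted lysyl oxidase and itself a hypoxia target (log2 fold change -1.02, adjusted p 0.204 in edgeR and 0.00582 in DESeq2), and to Ppib, a proline isomerase of the collagen folding complex (0.46, adjusted p 0.206). The collagen chains did not move in one direction: 6 of 10 had a negative value, 1 was separate and lower (Col5a2, -0.34) and 1 separate and higher (Col18a1, 0.30), where 24.8% and 24% of all genes were.

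Kdm3a, Mxi1 and Bhlhe40 act in the nucleus. Kdm3a (chromosome 6, 71588970 to 71632990, minus strand) is a demethylase of histone H3 lysine 9 that uses oxygen as a substrate. It had 184 and 182 CPM in untreated and 134 and 128 CPM in CCCP libraries. Both groups were tight and did not overlap. Its log2 fold change was -0.48 ± 0.110 (SE), with adjusted p = 0.204 in edgeR and 0.0396 in DESeq2. It stayed between -0.50 and -0.44 with any 1 library left out and was -0.32 with the GC trend removed, its transcript being 45.2% G and C. Its closest relatives differed from one another in value: Jmjd1c had 159 and 130 CPM in untreated and 79.1 and 86.2 CPM in CCCP libraries (log2 fold change -0.80, edgeR adjusted p 0.1503), while Kdm3b had -0.10. Kdm4b, an enzyme with related activity, had 0.12. Of 6 other demethylases of this kind, 4 had a negative log2 fold change, with a median of -0.23. Both CCCP libraries lay below both untreated ones for 3 of the 6 and above them for 1, against 24.8% and 24% of all genes.

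Bhlhe40 (chromosome 6, 108660629 to 108666925, plus strand), a repressor that also acts in the circadian clock, had 43.4 and 43.8 CPM in untreated and 31.5 and 33.4 CPM in CCCP libraries. The untreated libraries were nearly equal and both CCCP libraries lay about as far below them. The log2 fold change was -0.43 ± 0.120 (SE), with adjusted p = 0.245. in edgeR It lay between -0.46 and -0.38 with any 1 library left out, and was -0.48 with the trend on either exon length or GC content removed. Its paralog Bhlhe41 had 11.53 and 8.18 CPM in untreated and 7.99 and 6.40 CPM in CCCP libraries, a log2 fold change of -0.45 (adjusted p = 0.458., edgeR) Among the 8 clock genes 3 were separate and lower and 4 separate and higher (24.8% and 24% of all genes), with Per2 at -0.40 and Dbp at 0.54.

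Mxi1 (chromosome 19, 53310128 to 53373293, plus strand), which pairs with Max and opposes Myc, had 72.3 and 68.4 CPM in untreated and 66.3 and 60.3 CPM in CCCP libraries. The groups were separate by a narrow margin, at 0.900 of the untreated level. The log2 fold change was -0.15 ± 0.117 (SE), with adjusted p = 0.564 in edgeR, and it was -0.08 without CCCP replicate 2. Myc had a log2 fold change of 0.04 and Max one of 0.18. In the list of 10 genes of the Max network, Mga had -0.83 (edgeR adjusted p 0.166) and was the lone gene that was separate and lower. Of the 10, 8 had a positive log2 fold change and 2, Max among them, were separate and higher. Over all genes 24.8% were separate and lower and 24% separate and higher.

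Ndrg1 (chromosome 15, 66929318 to 66969641, minus strand), a stress-responsive cytoplasmic protein, had 58.1 and 49.7 CPM in untreated and 53.7 and 39.6 CPM in CCCP libraries. Replicate 1 was the higher library in both groups, and the groups overlapped. The log2 fold change was -0.21 ± 0.179 (SE), with adjusted p = 0.610. in edgeR It was 0.0043 without CCCP replicate 2, -0.08 without untreated replicate 1 and -0.44 without CCCP replicate 1. Its family members Ndrg2, Ndrg3 and Ndrg4 had log2 fold changes of -0.06, 0.13 and -0.01.

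**Figure D2:**
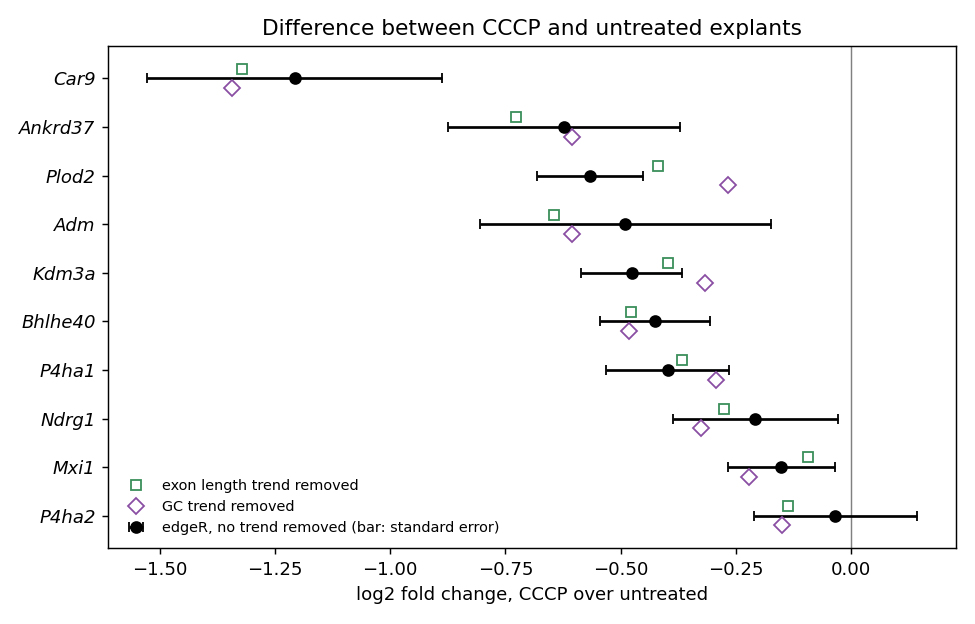
Log2 fold change of CCCP over untreated for the 10 genes (x axis), sorted by size. Black points and bars are edgeR estimates and standard errors; green squares and purple diamonds are the estimates with the trend on exon length or GC content removed from each library. All 10 estimates lie below 0 in each of the 3 fits, and Plod2 and Kdm3a move toward 0 when the GC trend is removed.

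Fold changes across all genes went with the length and base composition of the transcript, so each member was set beside genes like it, in 5 equal classes of exon length and 5 of GC content. The median log2 fold change was -0.27 in the class with the longest exons and 0.20 in the class with the shortest. It was -0.28 in the class with the lowest GC content and 0.17 in that with the highest. Each of the 10 genes lay below the median of its own length class and of its own GC class. Adm, in the class with the shortest exons, and Car9, in the next, were thus at -0.49 and -1.21 beside medians of 0.20 and 0.13. Plod2 and Kdm3a, both in the class with the lowest GC content, were at -0.57 and -0.48 beside a median of -0.28, so the distance to genes of like composition was smaller than their fold changes. The median of the 10 genes was -0.41 with the length trend removed and -0.32 with the GC trend removed.

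**Figure D3:**
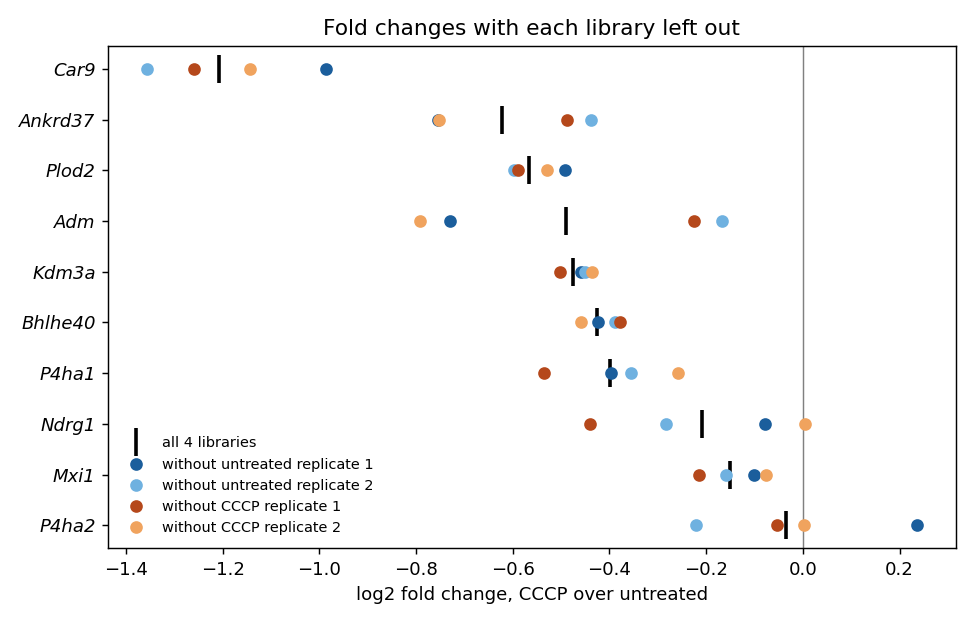
Log2 fold change of CCCP over untreated for the 10 genes with all 4 libraries (black bars) and with each library left out in turn (coloured points). Kdm3a, Bhlhe40, Plod2, Ankrd37 and Car9 stay well below 0 in every case, while Adm spans -0.79 to -0.17, and Ndrg1 and P4ha2 cross 0.

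The genes also differed in how their 4 library values lay. After each gene was centred on its own mean, the closest pair was Kdm3a and Bhlhe40, with a root mean square difference of 0.06 log2 units over the 4 libraries, and Plod2 lay equally near to Kdm3a. P4ha1 lay nearest to Kdm3a as well (0.08). Adm and Ankrd37 were nearest to each other (0.15), both with replicate 2 the higher in each group, and Ndrg1 was nearest to Mxi1 (0.12). Car9 stood farthest from the rest, at 0.33 from its nearest, Plod2, and 0.59 from P4ha2. With 4 libraries these distances only describe the values, and no correlation across libraries is given.

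Other hypoxia targets outside glycolysis were read for the width of the pattern. Of 33 such genes tested, 26 had a negative log2 fold change, and the median was -0.19. Both CCCP libraries lay below both untreated ones for 18 of the 33, against 24.8% of all genes, and above them for 1. None passed in edgeR, and 8 had an unadjusted edgeR p under 0.05 and were lower, against 9.16% of all genes. DESeq2 called 4 as lower and none as higher, against 2.99% and 0.329% of the genes it tested. The smallest p-value of the list belonged to Wsb1, a ubiquitin ligase adaptor, with 369 and 341 CPM in untreated and 197 and 203 CPM in CCCP libraries and a log2 fold change of -0.83 (edgeR adjusted p 0.144). In the other direction it belonged to Hmox1, haem oxygenase, at 0.28 (adjusted p 0.455), a gene that oxidative stress also induces.

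The glycolysis genes were less of one sign. Of 20 genes 13 had a negative log2 fold change, the median was -0.09, and 4 were separate and lower, a share below the 24.8% of all genes. Pfkp, a phosphofructokinase and the one gene of the list that DESeq2 called, had -1.002 (adjusted p 0.144 in edgeR and 5.97e-07 in DESeq2), and its muscle isoform Pfkm, with the smallest p-value among the genes with a positive value, had 0.24. Leaving out untreated replicate 2 gave a median of 0.16, and leaving out untreated replicate 1 gave -0.25, whereas the 10 targets outside glycolysis had -0.37 and -0.44. Whether the 2 lists differed was not tested.

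Of the factors and sensors themselves, Hif1a had 189 and 204 CPM in untreated and 160 and 189 CPM in CCCP libraries, with overlapping groups and a log2 fold change of -0.17 (edgeR adjusted p 0.575). Epas1, the alpha subunit prominent in endothelium, had 45.8 and 46.8 CPM in untreated and 36.6 and 24.0 CPM in CCCP libraries, at -0.61 (adjusted p 0.291). Egln2, a prolyl hydroxylase that is not itself a classical hypoxia target, had 79.2 and 74.4 CPM in untreated and 102 and 101 CPM in CCCP libraries, at 0.40 (adjusted p 0.240). In the list of 10 genes 3 were separate and lower and 3 separate and higher, near the 24.8% and 24% of all genes, and none passed in edgeR. Counts of mRNA do not measure the protein of Hif1a, whose level is set mainly by its destruction.

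**Figure D4:**
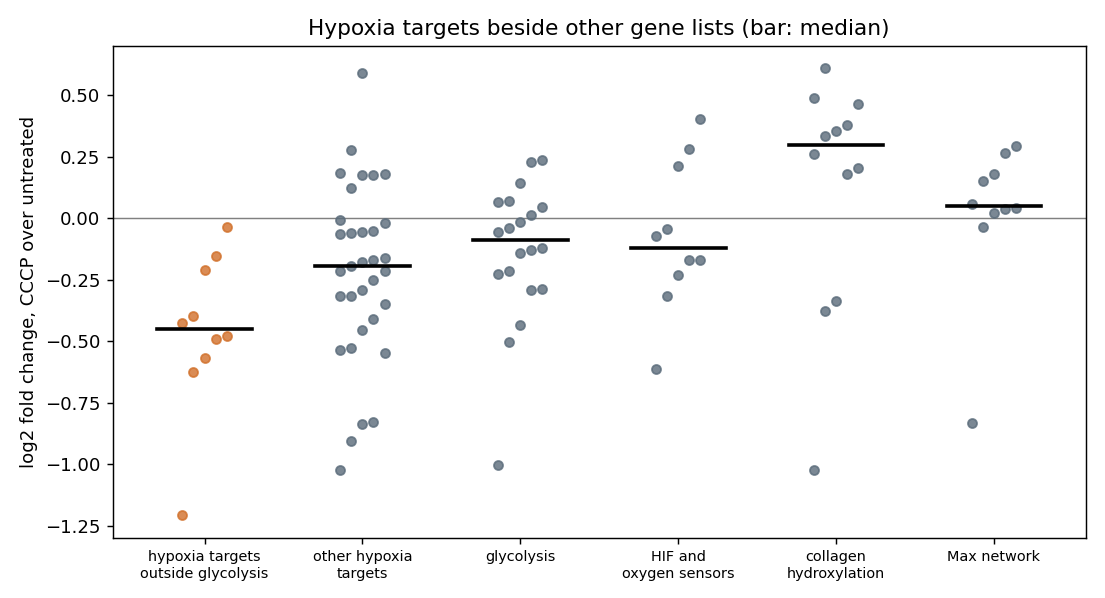
Log2 fold change of CCCP over untreated (y axis) for each tested gene of 6 lists, 1 point a gene, with the median of the list as a bar. The 10 hypoxia targets outside glycolysis (orange) all lie below 0 with a median of -0.45; the medians are -0.19 for other hypoxia targets, -0.09 for glycolysis and 0.30 for collagen hydroxylation. Some genes stand in more than one list.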

How the data were processed

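Poly(A) RNA of AGM explants was sequenced in 4 libraries, 2 in each group, grouped by sample title. The column of untreated replicate 1 is headed UM1 where its title reads UN_rep1, and the record of the file decided. Per the file headers, the authors counted reads over exons of the mm10 RefSeq annotation with featureCounts 2.0.3, ignoring strand, and deposited raw counts together with each gene's exon length. HISAT2, SAMtools and FastQC stand in the submitters' processing notes. Reads in exons of more than 1 gene were not counted.

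Counts were tested with edgeR 4.0.16 in R 4.3.3 (glmQLFit and glmQLFTest, TMM scaling, filterByExpr with minimum count 10 and total 15, group as the sole term), two-sided, with Benjamini-Hochberg adjustment over 19837 genes and a threshold of 0.05. A standard error is the log2 fold change divided by the square root of F. Recovery of known fold changes by this fit was checked on simulated data, in which the libraries varied independently of each other. DESeq2 1.42.0 and other settings served as alternatives. Length and GC trends were removed with a loess offset per library (span 0.3). GC content came from GENCODE transcripts and was known for all 10 members. The floor of 3 counts covers counting error only, whereas the standard errors include the spread between replicates. With 2 libraries a group no exact test of 1 gene is informative, so none is given.

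The members and lists were chosen with earlier results of these data known. All 10 members are named. Of other lists, cell type markers aside, the gene with the smallest p-value in each direction and the direct relatives of members are named. Ptprc, Kit, Csf1r, Pdgfra, P3h2, Serpinh1, Arhgef39 and the separate mesenchymal markers were chosen after values were seen. Every other list gene stands in the counts or the median of its list.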

Additional observations from a re-analysis of the deposited data

How the results depend on the processing

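The count of the 10 genes called was 0 with all 4 libraries and stayed 0 with RLE scaling, no scaling factors, a filter of 50 counts in 2 libraries, either trend removed, or any 1 library left out. It was 2 in DESeq2 and 1 (Plod2) without the filter, all lower, where the fit without the filter called 2.76% of its genes as lower. With the replicate block it was 5, all lower (2118 genes in all, 6.88% of all genes lower). With the replicate block and the exon length trend removed it was 4, all lower (1216 in all, 3.41% of all genes lower). With the replicate block and the GC trend removed it was 2, both lower (1095 in all, 3.79% of all genes lower). Removing the GC trend was chosen after the data had been seen. Same-numbered libraries deviated together (correlation 0.43 across genes), but the labels do not explain the numbers, and the block is not used above. For Adm, whose groups overlapped, the log2 ratio of CCCP to untreated was -0.51 between the libraries numbered 1 and -0.48 between those numbered 2. Over all genes the count was 594 in DESeq2, 1107 without the filter and between 10 and 46 with 1 library left out. Among the 118 other pathway genes tested it was 8 in DESeq2 (7 lower) and 15 without the filter (12 lower). With the replicate block it was 20 (15 lower), with the length trend also removed 13 (10 lower) and with the GC trend also removed 15 (13 lower). In the same order, these fits called 2.99%, 2.76%, 6.88%, 3.41% and 3.79% of all genes they tested as lower. The median log2 fold change of the 10 genes was -0.51 with no scaling factors, -0.41 with the length trend removed, with or without the replicate block, -0.32 with the GC trend removed, -0.33 with the replicate block and GC trend removed, and between -0.46 and -0.37 with 1 library left out. With 1 library left out, P4ha2 ran from -0.22 to 0.24 and Ndrg1 from -0.44 to 0.0043. Signs turned for P4ha2 without untreated replicate 1 (0.24) and without CCCP replicate 2 (0.0020), and for Ndrg1 without CCCP replicate 2 (0.0043). The cause was not tested. In the other 8 genes the sign held under all 14 alternatives. With 1 library left out, the lone library of a group is assumed to vary like the other group. Car9, Adm and Ankrd37 rest on 56 to 318 counts a library, which limits their precision.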
